A study of Rattus norvegicus with 12 samples.

Results

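The 5 genes described here encode the intermediate filament proteins of nerve cells. They are the light, medium and heavy neurofilament chains (Nefl, Nefm and Nefh), α-internexin (Ina) and peripherin (Prph). They were taken as every gene probe whose accession in the array files maps to one of these rat symbols, which gave 5 probes on 18 spots, out of 30367 gene probes for 26903 genes or unnamed accessions. The probes were A_44_P477889 for Nefl, A_42_P752336 for Nefm, A_44_P402445 for Nefh, A_44_P421375 for Ina and A_64_P139802 for Prph. The Nefm probe was spotted 10 times on each array and the others 2 times. The rule itself uses no measured value, but the genes were proposed with earlier results of these data known.

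RNA came from L6 dorsal root ganglia, which house the cell bodies of sensory neurons beside the spinal cord, of male Fischer 344 rats, an inbred strain with no engineered allele named in the labels. The group young_AL held 4 rats of 6 months fed ad libitum. The group old_AL held 4 rats of 25 to 28 months fed ad libitum, and old_CR held 4 rats of 25 to 28 months that had food on 3 days of the week from 6 weeks of age, a restriction of roughly 40% of calories. Each rat's RNA was read on 1 Agilent array in 1 colour. Arrays are called by group and by the replicate number that the source names carry (old_AL 1 and so on). The series asks about age-related change in the bladder and these ganglia and about the effect of caloric restriction.

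Neurofilaments fill the axons of sensory neurons and are most abundant in large, myelinated fibres, where they set axon calibre. Nefl forms the core of the filament, Nefm and Nefh add the long side arms that are phosphorylated in the axon, and α-internexin and peripherin can join the same polymer. Peripherin is typical of peripheral neurons and is prominent in small sensory neurons, and neurofilament and peripherin transcripts are known to respond to axon injury and to age. In whole ganglia, fewer cells of a type and less RNA per cell cannot be told apart.

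The number of arrays limits the precision of every value. The array of old_AL 1 had a 75th percentile of signal of 7662, against 2634 to 3110 on the other 11, and 4026 gene spots flagged as uneven, against 1 to 208. Results are therefore given without it (11 arrays, with 3 in old_AL), and with it (12 arrays). On old_AL 4, 7.63% of genes lay over 2-fold above the median of the other old_AL arrays, against 0.249% to 0.811% on the other 10 arrays set against their own groups. All young_AL arrays lie on slide 1 and all old arrays on slide 2, so slide and age cannot be told apart. The old_AL arrays lie in row 1 of their slide and the old_CR arrays in row 2, so row and diet cannot be told apart either. The young_AL arrays lie in row 2 of slide 1. Thus old_AL against young_AL differs in row as well as in slide, and old_CR against young_AL in slide only. The 15 pan-neuronal marker genes tested were well above background on all 12 arrays.

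All 18 spots of the 5 genes were well above background on all 12 arrays and none carried the scanner's saturation flag. Values below are multiples of an array's 75th percentile of processed intensity, a scale on which 1 equals that percentile. They can be compared between arrays for 1 gene but not between genes, since each probe has its own efficiency.

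Nefl, the light chain on which the other neurofilament chains assemble, read 50.3, 50.1, 48.6 and 50.2 on young_AL 1 to 4. It read 37.9, 38.0, 42.2 and 40.5 on old_AL 1 to 4, and 43.6, 41.5, 43.2 and 43.5 on old_CR 1 to 4. Every old array lay below every young array, old_AL 1 included, while old_CR and old_AL overlapped. The means were 49.8 ± 0.797 (SD, n = 4) in young_AL, 40.3 ± 2.08 (SD, n = 3) in old_AL without old_AL 1 and 43.0 ± 0.977 (SD, n = 4) in old_CR. The median SD between the 2 spots of an array was 0.016 on the log2 scale.

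Nefm, the medium chain, read 116.4, 113.9, 115.6 and 110.4 on young_AL 1 to 4. It read 97.9, 98.4, 105.2 and 102.3 on old_AL 1 to 4, and 106.8, 100.6, 104.8 and 103.5 on old_CR 1 to 4. The 7 old arrays other than old_AL 1 lay below every young array, and the old groups overlapped with each other. The means were 114.1 ± 2.65 (SD, n = 4), 102.0 ± 3.45 (SD, n = 3) and 103.9 ± 2.598 (SD, n = 4) in the same order. The 10 spots of the probe give 10 readings of each array, and 6 of its 120 spots were left out for an outlier flag, 4 on old_AL 1 and 2 on young_AL 4. On old_AL 1 the median signals of the spots lay between 98.1% and 99.99% of the scanner's saturation value, although none was flagged as saturated, and on the other 11 arrays they reached at most 47.8%. The saturation value of that scan equals 101.3 multiples of the array's 75th percentile, before the scanner software's detrending, and so lies below the lowest young reading of 110.4. The reading of Nefm on old_AL 1 is therefore no more than a lower bound, and its place below the young arrays carries no information.

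**Figure D1:**
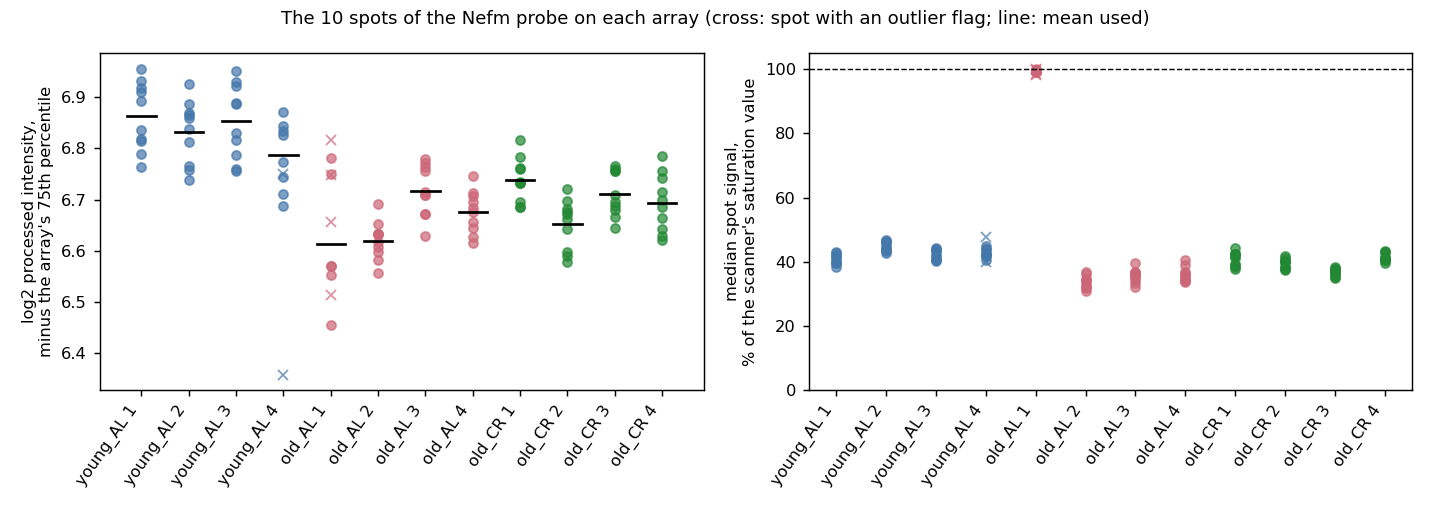
The left panel plots each of the 10 Nefm spots on each array as log2 processed intensity minus the array's 75th percentile, with crosses for spots with an outlier flag and a line for the mean of the spots used; the right panel plots the median signal of the same spots as a percentage of the scanner's saturation value. The young_AL means lie above the means of the 7 old arrays other than old_AL 1, whose spots lie at 98.1% to 99.99% of the saturation value, so that its mean is capped.

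Nefh, the heavy chain with the longest side arm, read 28.2, 28.2, 28.1 and 27.4 on young_AL 1 to 4. It read 33.3, 21.6, 24.0 and 24.9 on old_AL 1 to 4, and 23.8, 23.1, 24.5 and 24.3 on old_CR 1 to 4. The old_AL 1 array was the highest of all 12, and the 7 other old arrays lay below every young array. Without old_AL 1 the means were 28.0 ± 0.385 (SD, n = 4), 23.5 ± 1.74 (SD, n = 3) and 23.9 ± 0.652 (SD, n = 4) in young_AL, old_AL and old_CR. The 2 spots of old_AL 4 differed more than on any other array, with an SD of 0.34 on the log2 scale. They lay at 4.88 and 4.40, where the young arrays ran from 4.78 to 4.82. The place of old_AL 4 below the young arrays thus rests on the mean of 2 unlike spots, 1 of which lay above them.

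Ina, which encodes α-internexin, read 3.45, 3.54, 3.54 and 3.53 on young_AL 1 to 4. It read 4.12, 2.99, 2.89 and 3.25 on old_AL 1 to 4, and 3.03, 2.94, 3.09 and 3.04 on old_CR 1 to 4. As for Nefh, old_AL 1 was the highest of the 12 arrays and the 7 other old arrays lay below every young array. On old_AL 1 an outlier flag removed 1 of the 2 spots, so that value rests on a single spot. The spot used read 2.04 on the log2 scale and the removed spot 1.77, where the young arrays ran from 1.79 to 1.82. Without old_AL 1 the means were 3.51 ± 0.0400 (SD, n = 4), 3.04 ± 0.186 (SD, n = 3) and 3.03 ± 0.0632 (SD, n = 4).

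Prph, which encodes peripherin, read 71.3, 71.8, 68.3 and 65.9 on young_AL 1 to 4. It read 83.5, 70.3, 70.1 and 73.8 on old_AL 1 to 4, and 66.4, 63.9, 69.4 and 64.5 on old_CR 1 to 4. Young arrays overlapped with both old groups, and all old_AL arrays lay above all old_CR arrays. Without old_AL 1 the means were 69.3 ± 2.75 (SD, n = 4), 71.4 ± 2.07 (SD, n = 3) and 66.0 ± 2.44 (SD, n = 4). On young_AL 4 an outlier flag removed 1 of the 2 spots, so that value rests on a single spot.

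**Figure D2:**
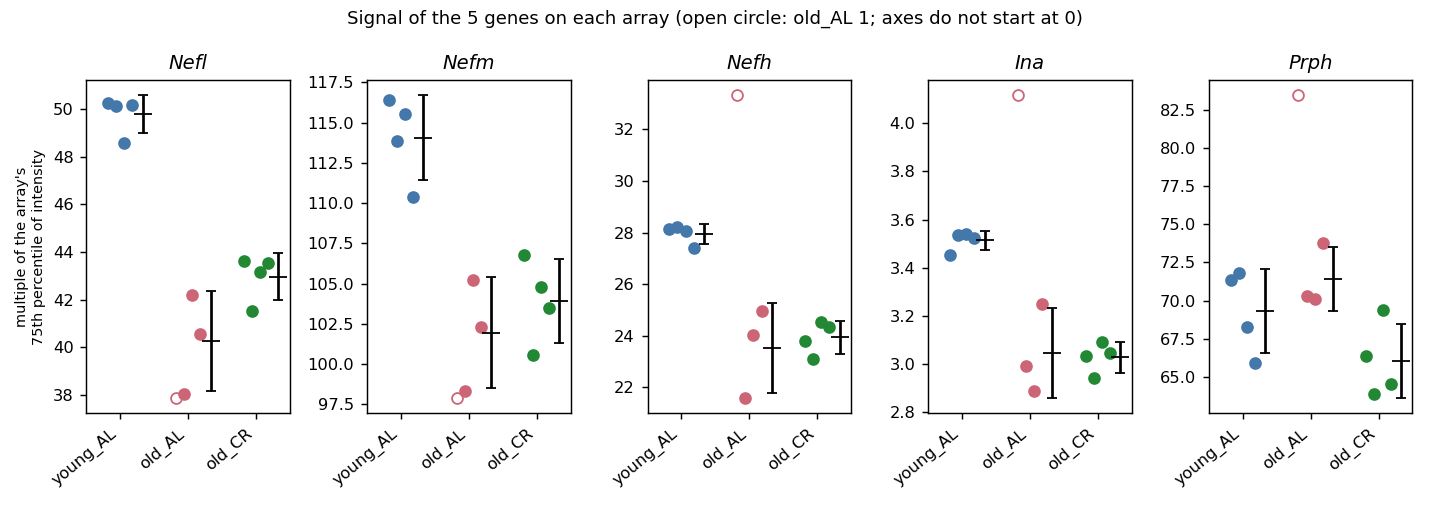
Each panel plots 1 gene, with a point per array (multiple of the array's 75th percentile of processed intensity) and, beside the points, the mean and SD without old_AL 1, which is drawn as an open circle; axes do not start at 0. In Nefl all old points lie below all young points, in Nefm, Nefh and Ina all old points other than old_AL 1 do, and in Prph young and old points overlap; the Nefm point of old_AL 1 is capped by the scanner.

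The first comparison, old_AL against young_AL, asks what differs with age under free feeding. On 11 arrays, 3 of the 5 genes fell and 2 did not pass, where 3.24% of the 20849 genes tested passed in either direction and 1.25% were lower. Nefl fell by 0.31 ± 0.04 on the log2 scale (limma, SE, adjusted p = 0.0133), a change of -19.2%. Nefh fell by 0.25 ± 0.05 (adjusted p = 0.0359), a change of -16.1%, and Ina fell by 0.21 ± 0.04 (adjusted p = 0.0391), a change of -13.5%. Nefm differed by -0.16 ± 0.04, which did not pass (adjusted p = 0.0514), with a 95% interval from -0.25 to -0.08. Prph differed by 0.04 ± 0.04 (adjusted p = 0.577), with an interval from -0.06 to 0.14. The median over the 5 genes was -0.21, beside 0.03 over all genes tested. The groups did not overlap for Nefl, Nefm, Nefh and Ina, with old_AL lower, as was so for 7.67% of all genes tested. With all 12 arrays, 0 of the 5 genes passed in limma, 2 (Nefl and Nefm) had an unadjusted p under 0.05, and 0.0191% of all genes passed. At that unadjusted level 6.71% of all genes passed, and the value of Nefm includes the capped reading of old_AL 1. On those 12 arrays the groups did not overlap for Nefl, with old_AL lower, as was so for 4.51% of all genes tested.

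When each of the 11 arrays was left out in turn, Nefl passed in all 11 fits, with adjusted p between 0.0126 and 0.0479. Nefh and Ina each passed in 1 of the 11, the fit without old_AL 4, with adjusted p of 0.0339 for Nefh and 0.0240 for Ina, and ran up to 0.0939 and 0.103 in the others. None of the 5 passed when the fit held the compared groups alone (Nefl adjusted p = 0.0978), nor when arrays were centred on the deviation of the pan-neuronal genes, an alternative chosen after seeing the data (Nefl -0.29, adjusted p = 0.0505). With a block for the replicate number none of the 5 passed either (limma, Nefl adjusted p = 0.0676).

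The second comparison, old_CR against young_AL, sets restricted old rats beside the same 4 young arrays, so age and diet both differ and the values are not independent of those above. The same 3 genes fell on 11 arrays, where 2.41% of all genes passed in either direction and 1.63% were lower. Nefl fell by 0.21 ± 0.04 (limma, adjusted p = 0.0269), Nefh by 0.22 ± 0.05 (adjusted p = 0.0401) and Ina by 0.21 ± 0.04 (adjusted p = 0.0283). Nefm differed by -0.13 ± 0.03 (adjusted p = 0.0763) and Prph by -0.07 ± 0.04 (adjusted p = 0.421), and neither passed. The 4 genes other than Prph did not overlap with young_AL and were lower, as was so for 10.2% of all genes tested. The median over the 5 genes was -0.21, beside -0.02 over all genes.

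Nefl and Ina each passed in 3 of these 11 leave-outs, those without old_AL 2, old_AL 3 or old_AL 4. Nefh passed in 2, without old_AL 2 or old_AL 4. None of the 5 passed under median centring or without a filter on dim probes. As above, none passed with a block for the replicate number or with centring on the deviation of the pan-neuronal genes. Adjusted p in the other leave-outs reached 0.0720 for Nefl, 0.0946 for Ina and 0.112 for Nefh. With all 12 arrays the differences were the same, 0 of the 5 passed in limma, 1 (Nefl) had an unadjusted p under 0.05, as did 2.72% of all genes, and 0.0191% of all genes passed after adjustment.

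The third comparison, old_CR against old_AL, asks what differs with diet among old rats. In this comparison 0 of the 5 genes passed in limma on 11 arrays, 2 (Nefl and Prph) had an unadjusted p under 0.05, as did 26.4% of all genes, and 1.06% of all genes passed after adjustment. Nefl differed by 0.09 ± 0.04 (adjusted p = 0.178), with a 95% interval from 0.0034 to 0.19, so that old_CR values lay between those of old_AL and young_AL on average. The intervals ran from -0.06 to 0.11 for Nefm, from -0.08 to 0.14 for Nefh and from -0.10 to 0.09 for Ina. Prph differed by -0.11 ± 0.04 (adjusted p = 0.155), with an interval from -0.21 to -0.01, and its groups did not overlap, with old_CR lower, as was so for 15.3% of all genes tested. Of all the alternatives, median centring alone gave calls: 4 of the 5 genes passed as higher in old_CR, with 3303 genes passing and the median of all genes moved from -0.05 to 0.12. With all 12 arrays, 0 of the 5 passed, 0 had an unadjusted p under 0.05, as did 5.96% of all genes, and 0.00478% of all genes passed after adjustment. The groups of Prph did not overlap, with old_CR lower, as was so for 4.55% of all genes tested.

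**Figure D3:**
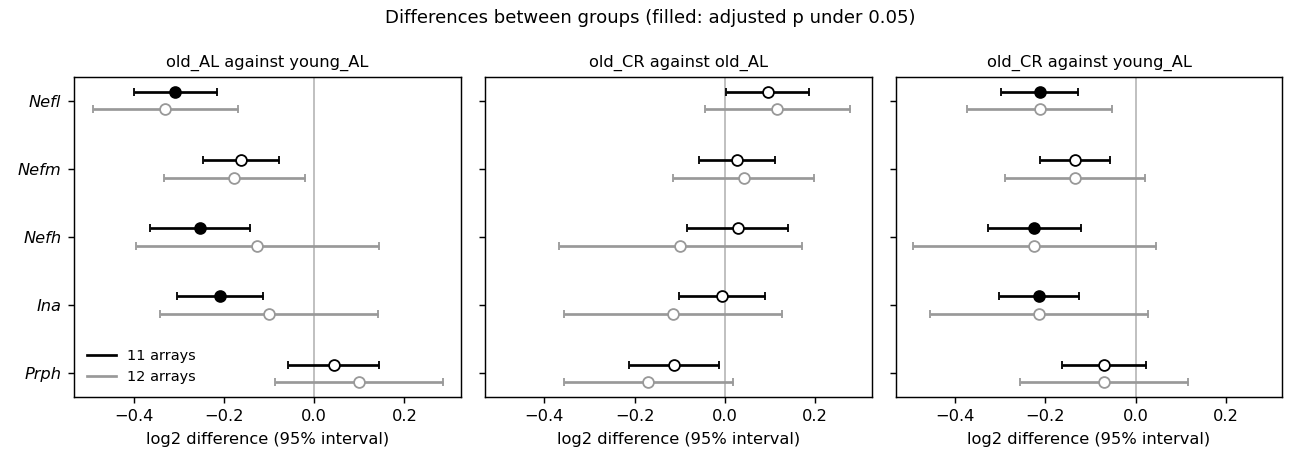
Each panel plots, for 1 comparison, the log2 difference of the 5 genes with its 95% interval, in black for 11 arrays and grey for 12, with filled points for an adjusted p under 0.05. Nefl, Nefh and Ina have filled points on 11 arrays in both comparisons with young_AL, and no point is filled in old_CR against old_AL or on 12 arrays.

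Ratios between genes on the same array do not depend on a factor that scales the whole array. Quantile normalization and normexp can change them. They are given relative to the young_AL mean on the log2 scale, as descriptions without a test, and they show unequal change only. Without old_AL 1, Nefl minus Prph was -0.35 ± 0.08 (SD, n = 3) in old_AL and -0.14 ± 0.05 (SD, n = 4) in old_CR, with young arrays from -0.04 to 0.08. Every old array lay below every young array in this ratio, and the old_AL arrays, from -0.41 to -0.26, lay below the old_CR arrays, from -0.21 to -0.09. Nefh minus Prph was -0.30 ± 0.09 (SD, n = 3) in old_AL and -0.15 ± 0.04 (SD, n = 4) in old_CR. Ina minus Prph was -0.25 ± 0.05 (SD, n = 3) and -0.14 ± 0.03 (SD, n = 4), and Nefm minus Prph was -0.21 ± 0.06 (SD, n = 3) and -0.06 ± 0.04 (SD, n = 4). For all 4 genes, the old_AL arrays without old_AL 1 lay below the old_CR arrays relative to Prph. These 4 ratios share Prph, which by itself separated old_AL from old_CR, while each of the 4 genes overlapped between these groups. They are thus not 4 separate observations on diet. The share of all genes that lie apart in the same way relative to Prph was not computed.

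Among the neurofilament chains themselves, Nefl minus Nefm was -0.15 ± 0.03 (SD, n = 3) in old_AL and -0.08 ± 0.02 (SD, n = 4) in old_CR, and Nefl minus Nefh was -0.06 ± 0.07 (SD, n = 3) and 0.01 ± 0.02 (SD, n = 4). In Nefl minus Nefh the 3 groups overlapped without old_AL 1, from -0.04 to 0.04 in young_AL, from -0.13 to -0.01 in old_AL and from -0.02 to 0.04 in old_CR. In the annotation of the assembly GRCr8, Nefl and Nefm lie on the same chromosome with 1 annotated gene between them.

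**Figure D4:**
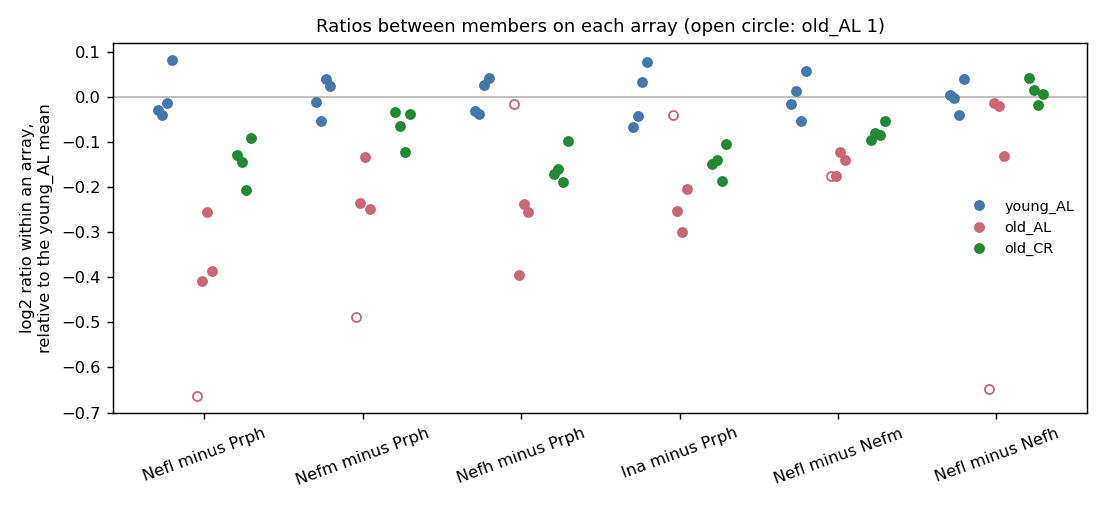
The plot shows log2 ratios between genes on each array relative to the young_AL mean, with a point per array and an open circle for old_AL 1. The ratios to Prph share that gene, whose own old_AL and old_CR arrays did not overlap. Relative to Prph, old_AL arrays other than old_AL 1 lie below all old_CR arrays, and old_CR arrays lie below all young_AL arrays except in Nefm minus Prph, where they overlap; in Nefl minus Nefh, old_AL 4 (-0.13) and old_AL 1 lie apart from the rest.

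Likeness of pattern was measured as the root mean square difference between centred log2 values over the 11 arrays, among 12347 genes with a symbol. The gene nearest to Nefl was Nefh, at 0.045, where the spread of Nefl itself was 0.133. Next were the lipid transporter Mfsd2a at 0.0485 and the ubiquitin ligase component Vhl at 0.0501. Nearest to Nefh were Idi1 (isopentenyl diphosphate isomerase) at 0.0372, Cyp51 (lanosterol demethylase) at 0.0374 and Hmgcs1 (hydroxymethylglutaryl-CoA synthase) at 0.0439, with Nefl at rank 4. Nearest to Nefm were Tmem97, the small GTPase Arl5a and the fatty acid elongase Elovl5, at 0.0309 to 0.0333, and nearest to Ina were the splicing factor Srsf10, Ttc9b and Ubfd1, at 0.0274 to 0.0339. Nearest to Prph were the neuronal deubiquitinase Uchl1 at 0.0263, the microtubule regulator Stmn2 at 0.0287 and Rrp15 at 0.0292. Prph ranked 4147 from Nefl, 2434 from Nefm, 2561 from Nefh and 2330 from Ina.

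Genes that act with neurofilaments were set beside them as lists. The counts at an unadjusted p under 0.05 given for these and the lists that follow stand beside 23.1% of all genes in old_AL against young_AL, 26.4% in old_CR against old_AL and 18.3% in the comparison of old_CR with young_AL. Of 20 cytoskeletal partners (tubulins, microtubule-associated proteins, motors and linkers), 0 passed in limma in old_AL against young_AL and 2 had an unadjusted p under 0.05, with a list median of 0.00. In old_CR against old_AL 1 of the 20 rose, Map1b, which binds microtubules in axons, by 0.20 ± 0.04 (adjusted p = 0.0445), and in old_CR against young_AL 0 passed, with 2 at an unadjusted p under 0.05. Of 14 kinases and phosphatases that act on neurofilaments, 0 passed in any comparison, with 3, 5 and 2 at an unadjusted p under 0.05 for age under free feeding, for diet among old rats and for old_CR against young_AL, in this order. Of 11 genes of neurofilament turnover and mRNA binding, 0 passed, with 4, 3 and 2 at that level in the same order. Of 11 other intermediate filament genes, 1 rose in old_AL against young_AL, the muscle-type filament gene Des by 0.41 ± 0.09 (adjusted p = 0.0421). Krt18, a keratin of simple epithelia, rose by 0.94 ± 0.16 (adjusted p = 0.0222) in old_CR against young_AL. In old_CR against old_AL 0 of these 11 passed, and 4 had an unadjusted p under 0.05. With a further array left out, these calls passed in 1 of 11 fits for Map1b, 2 for Des and 6 for Krt18. With all 12 arrays, Map1b turned to -0.20 in old_CR against old_AL and Des to -0.14 in old_AL against young_AL.

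Markers of the neurons that carry these filaments were read in the same fit. Of 15 pan-neuronal genes, 1 fell in old_AL against young_AL, the homeobox gene Isl1 by 0.19 ± 0.04 (adjusted p = 0.0480), a call that was lost in all 11 fits with a further array left out. Isl1 was higher in old_CR than in old_AL by 0.31 ± 0.04 (adjusted p = 0.0289), and the list medians were -0.03, 0.03 and 0.03 in the 3 comparisons in the order given. The summed level of the list was 214.9 on young_AL 4, where a single gene, Ndrg4, read 0.358 against 88.2 to 97.8 on the other 11 arrays. It ran from 303.9 to 317.0 on the other young arrays, from 304.5 to 319.9 in old_AL without old_AL 1 and from 294.1 to 317.3 in old_CR. Of 18 genes of large-diameter neurons, the class richest in neurofilaments, 3 fell in old_AL against young_AL and 0 rose, with a median of -0.03. They were the calcium-binding proteins Pvalb, by 0.23 ± 0.04 (adjusted p = 0.0324), Calb1, by 0.43 ± 0.08 (adjusted p = 0.0328), and Calb2, by 0.50 ± 0.11 (adjusted p = 0.0492). In the comparisons of old_CR with old_AL and with young_AL 0 of the 18 passed, with 6 and 2 at an unadjusted p under 0.05. The summed level of this list ran from 54.6 to 59.3 in young_AL, from 54.3 to 56.2 in old_AL without old_AL 1 and from 56.9 to 60.0 in old_CR. Of 17 genes of small-diameter neurons, 2 rose and 1 fell in old_AL against young_AL, with a median of 0.00. Cd55 rose by 0.44 ± 0.08 (adjusted p = 0.0320), the irritant channel gene Trpa1 rose by 0.43 ± 0.09 (adjusted p = 0.0462), and the receptor gene Mrgprd fell by 0.42 ± 0.09 (adjusted p = 0.0463). Cd55 fell by 0.50 ± 0.08 (adjusted p = 0.0384) in old_CR against old_AL, and in old_CR against young_AL 0 of the 17 passed, with 3 at an unadjusted p under 0.05. In old_AL against young_AL, the call of Trpa1 was also lost in all 11 fits with a further array left out. Calb2 and Mrgprd each passed in 1 of these fits, and Pvalb, Calb1 and Cd55 each in 4. With all 12 arrays the differences of Pvalb and Trpa1 between old_AL and young_AL turned to 0.09 and -0.14.

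Of 16 nerve injury genes, 2 rose in old_AL against young_AL: Anxa1, a phospholipid-binding protein, by 0.50 ± 0.07 (adjusted p = 0.0149), and the secreted lectin gene Reg3b, by 2.15 ± 0.41 (adjusted p = 0.0326). In the comparisons of old_CR with old_AL and with young_AL 0 passed, with 6 and 2 at an unadjusted p under 0.05. With a further array left out, Anxa1 passed in 10 of 11 fits of old_AL against young_AL and Reg3b in 3. The summed level of this list was 52.9 on young_AL 1 and 26.6 to 30.9 on the other young arrays, 31.4 to 36.2 in old_AL without old_AL 1 and 27.7 to 30.8 in old_CR. Nefl on young_AL 1 was 50.3, beside 48.6 to 50.2 on the other young arrays. The part of the injury genes in the neurofilament differences was not tested. Without young_AL 1 the difference of Nefl between old_AL and young_AL was -0.30 (adjusted p = 0.0278), and those of Nefh and Ina were -0.25 (adjusted p = 0.0628) and -0.22 (adjusted p = 0.0597).

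Of 12 macrophage genes, 5 rose in old_AL against young_AL, with a list median of 0.96, among them Gpnmb by 1.48 ± 0.19 (adjusted p = 0.0133), Lyve1 by 1.09 ± 0.15 (adjusted p = 0.0135), the scavenger receptor gene Cd163 by 1.81 ± 0.35 (adjusted p = 0.0336) and the mannose receptor gene Mrc1 by 1.13 ± 0.23 (adjusted p = 0.0377). Gpnmb and Lyve1 also rose in old_CR against young_AL, by 1.19 ± 0.18 (adjusted p = 0.0163) and 0.82 ± 0.14 (adjusted p = 0.0209), and 0 of the 12 passed in old_CR against old_AL, with 5 at an unadjusted p under 0.05. With a further array left out, Gpnmb and Lyve1 passed in all 11 fits of old_AL against young_AL, and Cd163 and Mrc1 each in 2. For old_CR against young_AL, Gpnmb passed in 9 of these fits and Lyve1 in 5. The summed level of the macrophage list was 9.08 to 12.6 in young_AL, 14.3 to 20.1 in old_AL without old_AL 1 and 11.5 to 15.4 in old_CR. Of 14 genes of myelinating Schwann cells, the glia that wrap neurofilament-rich axons, 0 passed in old_AL against young_AL, with 6 at an unadjusted p under 0.05 and a median of -0.23. In old_CR against young_AL 3 fell, the lipid enzymes Ugt8 by 0.73 ± 0.14 (adjusted p = 0.0306) and Fa2h by 0.52 ± 0.10 (adjusted p = 0.0354) and the myelin protein Pmp22 by 0.30 ± 0.06 (adjusted p = 0.0491), with a median of -0.39. With a further array left out, Ugt8 and Fa2h each passed in 4 of 11 fits of old_CR against young_AL and Pmp22 in 3. The summed level of the Schwann cell list was 156.0 to 175.7 in young_AL, 131.3 to 159.5 in old_AL without old_AL 1 and 130.7 to 151.4 in old_CR. The part of these cells in the neurofilament differences was not tested.

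Of 12 satellite glia genes, 1 fell in old_AL against young_AL (Ednrb, an endothelin receptor, by 0.30 ± 0.06, adjusted p = 0.0365), 1 in old_CR against old_AL (the glutamate transporter gene Slc1a3, by 0.36 ± 0.05, adjusted p = 0.0289) and 4 in old_CR against young_AL, Slc1a3, Ednrb, Fabp7 and Sox10. Their summed level was 117.1 to 125.5 in young_AL, 121.3 to 127.2 in old_AL without old_AL 1 and 109.9 to 119.0 in old_CR. Of 9 fibroblast genes Apod rose in old_AL against young_AL, by 0.82 ± 0.17 (adjusted p = 0.0390), and Col1a1 fell in old_CR against young_AL, by 0.92 ± 0.15 (adjusted p = 0.0201). Of 8 endothelial genes 0 passed in any comparison, with 2, 5 and 1 at an unadjusted p under 0.05, and of 7 skeletal muscle genes only Des passed, in old_AL against young_AL. Of 6 genes of central glia, Aqp4 rose in old_CR against old_AL by 1.004 ± 0.16 (adjusted p = 0.0363) and against young_AL by 1.49 ± 0.15 (adjusted p = 0.0049). Among all the genes of these lists, Aqp4 in old_CR against young_AL was the only call on 12 arrays (adjusted p = 0.0197). With a further array left out of the 11, Ednrb passed in 1 fit of old_AL against young_AL and Apod in 2. In old_CR against old_AL, Slc1a3 passed in 5 fits and Aqp4 in 3. In old_CR against young_AL, Slc1a3, Ednrb and Aqp4 passed in all 11, Col1a1 in 6, Fabp7 in 4 and Sox10 in 2.

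**Figure D5:**
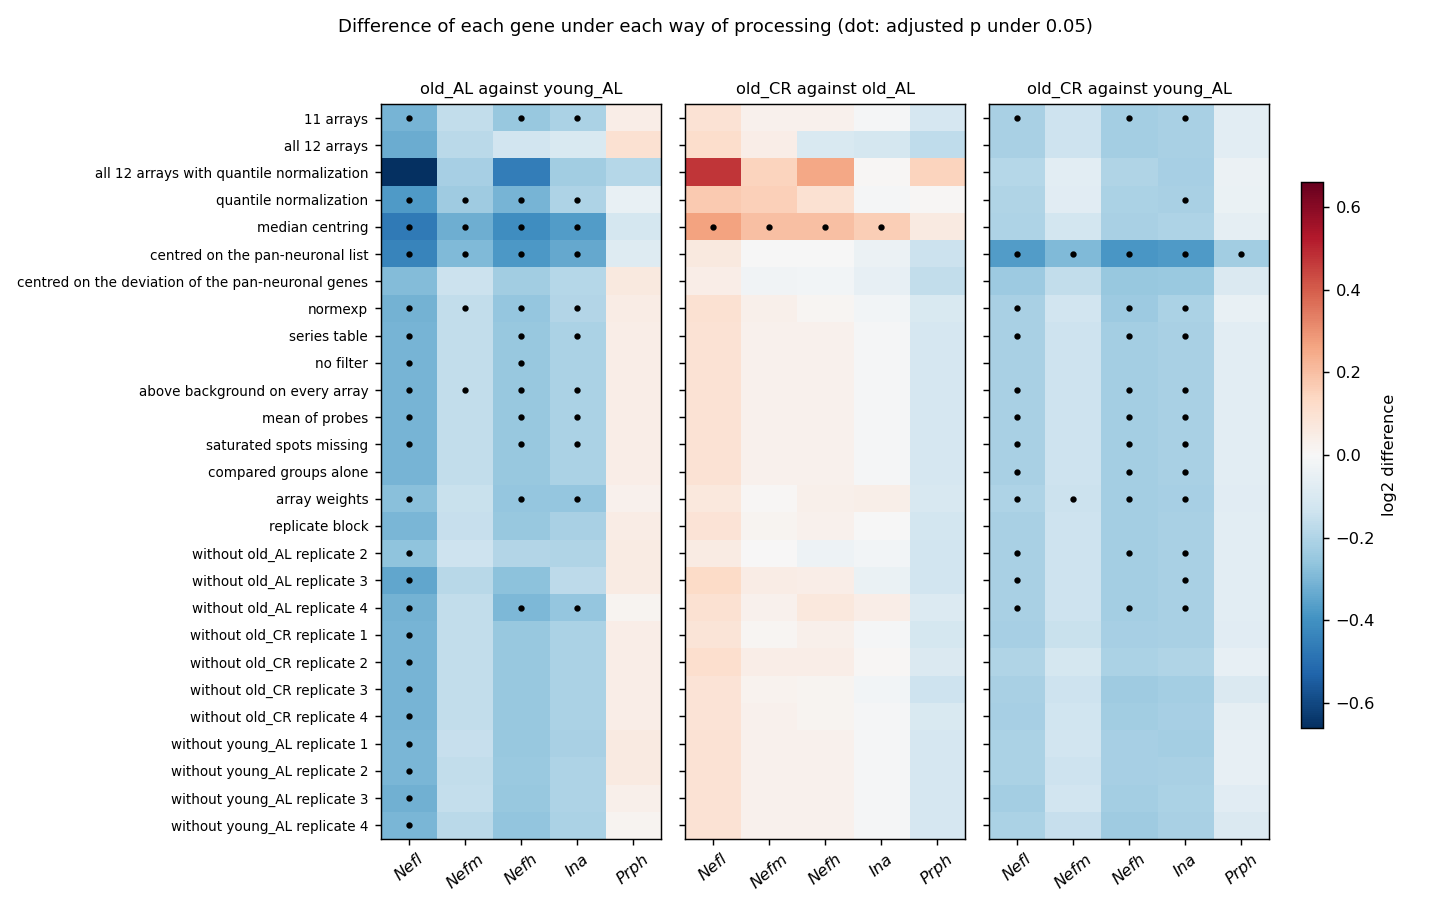
Each cell gives the log2 difference of 1 gene under 1 way of processing, with the way of processing in rows, the genes in columns and a panel for each comparison; a dot marks an adjusted p under 0.05. In both comparisons with young_AL the cells of Nefl, Nefm, Nefh and Ina are below 0 in every row, while dots are missing in many rows. In old_AL against young_AL, 5, 15 and 16 alternatives lost the dot of Nefl, Nefh and Ina, and 21, 11 and 10 kept it. In old_CR against young_AL, 15, 16 and 14 lost it, and 11, 10 and 12 kept it. Nefm has a dot in 5 and 2 alternatives of these comparisons, and none in 21 and 24.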

How the data were processed

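Ganglion RNA of 12 rats was labelled with Cy3 and read on 12 Agilent arrays of 1 colour. The authors deposited linear spot intensities made with Agilent Feature Extraction 10.7, per the submitters' processing notes, with background already subtracted from the processed intensity, per the file headers. The deposited series table held the same intensities, with a largest difference of 0. Symbols came from the RefSeq annotation of GRCr8 by accession, for 17998 of 30367 probes.

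The value analysed was log2 processed intensity minus the array's 75th percentile. Control spots and spots with an outlier flag were left out, saturated spots were kept, and spots of a probe were averaged on the log2 scale. Probes had to be well above background (at least a share of 0.5 of their spots) on 4 or more arrays. The brightest probe stood for a gene. Groups were compared with limma 3.58.1 (lmFit, eBayes, a mean per group) under R 4.3.3, on 11 arrays and on all 12, with Benjamini-Hochberg adjustment over all genes and a threshold of 0.05. The script was tested on simulated data. Figures were drawn with matplotlib 3.10.9 in Python 3.11.15. Rats are the replicates, as the design text gives 4 rats a group.

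Named genes were the 5 members, up to 4 genes a list and comparison that passed, and the 3 genes nearest to each member in pattern. The members and lists were chosen with earlier results of these data known. Alternatives were other scalings, normexp with an offset of 50 (on the median signal, because the files used here give no mean spot signal), other filters, the mean of probes, saturated spots set to missing, the compared groups alone, array weights, a block for the replicate number, and leaving out single arrays.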

Additional observations from a re-analysis of the deposited data

Results flagged for a closer look

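In young_AL, Nefl on young_AL 3 lay apart from the other 3 arrays of its group. Its value was 5.60 on the log2 scale relative to the array's 75th percentile, where the nearest of the others was 5.65, and the gap took a share of 0.928 of the group's whole range, above Dixon's critical value at 95% for 4 arrays. In all, 15 combinations of gene and group were examined and 1 stood out, where chance gives about 1 in 20. The value still lay above every old array, and without young_AL 3 the difference of Nefl between old_AL and young_AL was -0.32 (limma, adjusted p = 0.0479).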

How the results depend on the processing

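The 208 values of Nefl, Nefm, Nefh and Ina against young_AL under all alternatives were all below 0, those of Nefm on 12 arrays with a reading capped by the scanner, while the calls depended on the arrays and the scaling. Many of these values repeat the main difference by construction, so their count does not measure how firm the direction is. The deposited table, the filters, the mean of probes, saturated spots set to missing and the compared groups alone left the differences unchanged. So did leaving out arrays of a group outside the comparison. With all 12 arrays, 4, 1 and 4 genes passed for age under free feeding, for diet among old rats and for old_CR against young_AL. This order is used from here on, so the second comparison below is old_CR against old_AL and the last is old_CR against young_AL. On those 12 arrays 0 of the 5 genes passed in each, and Nefh turned to -0.10 in old_CR against old_AL. Quantile normalization of 12 arrays gave 17, 3 and 3 genes and 0 of the 5 in each, and Prph turned to -0.19 in the first comparison and 0.15 in the second, where Ina turned to 0.0073. On 11 arrays, quantile normalization gave 1067, 393 and 381 genes and 4, 0 and 1 of the 5, with Prph at -0.048 and 0.0068 in the first 2 comparisons. Median centring gave 3404, 3303 and 191 genes and 4, 4 and 0 of the 5, with Prph at -0.12 and 0.058 and Ina at 0.16 in the second comparison; it moved the median of all genes to -0.13 and 0.12 in the first 2. Centring on the median level of the pan-neuronal list gave 837, 20 and 4299 genes and 4, 0 and 5 of the 5, with Prph at -0.086 in the first comparison and Nefm at -0.0025 and Nefh at -0.0018 in the second; it moved the median of all genes to -0.18 in the last. Centring on the deviation of the same genes, chosen after seeing the data, gave 254, 383 and 228 genes and 0 of the 5 in each, with Nefm at -0.021 and Nefh at -0.020 in the second comparison. Normexp gave 3838, 4732 and 459 genes and 4, 0 and 3 of the 5. Without a filter 542, 128 and 226 genes and 2, 0 and 0 of the 5 passed, and with a filter on every array 744, 370 and 571 and 4, 0 and 3. The compared groups alone gave 25, 0 and 879 genes and 0, 0 and 3 of the 5. Array weights gave 910, 1209 and 1775 genes and 3, 0 and 4 of the 5, with Ina at 0.040 in the second comparison. The cause of these changes was not tested.

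The replicate block gave 20, 1 and 17 genes and 0 of the 5 in each. The replicate numbers name different rats, and the deviations of arrays with the same number correlated between -0.0883 and 0.0863 over 10 pairs, so the numbers did not pair the arrays. Leaving out each of the 11 arrays gave 70 to 402, 1 to 924 and 42 to 862 genes and 1 to 3, 0 to 0 and 0 to 3 of the 5. In old_CR against old_AL, the same leave-outs gave -0.032 (without old_AL 2) to 0.072 for Nefh and -0.043 to 0.042 for Ina, which was above 0 without old_AL 4 and without old_CR 2 (0.0075). In all, 280 single-gene values kept their direction and their side of the threshold, 81 lost their call, 11 gained one and 18 changed sign. All spots of the 5 genes were well above background. The number of arrays, the row of old_AL and the slide, which cannot be told apart from age, limit what these values show.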

Other observations

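On young_AL 1 several genes known to rise in sensory neurons after nerve injury were higher than on the other young arrays, in values that were singled out after they were seen. The neuropeptide gene Gal read 10.8 multiples of the array's 75th percentile on young_AL 1 and 0.469 to 0.662 on the other young arrays. The injury transcription factor gene Atf3 read 3.73, against 0.742 to 0.921, and the neuropeptide gene Vip read 1.199, against 0.0130 to 0.0241. Of the 16 genes of the nerve injury list, 6 lay over 2-fold above the median of the other young arrays, as did 0.748% of all genes. On the same array Nefl read 50.3, against 48.6 to 50.2 on the other young arrays, Nefm read 116.4, against 110.4 to 115.6, and Ina read 3.45, against 3.53 to 3.54. Nefh read 28.2 there, against 27.4 to 28.2, and Prph read 71.3, against 65.9 to 71.8.

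The tubulin gene Tubb3 read 89.6 on old_AL 1 and 37.1 to 42.7 on the other 11. This was not particular to Tubb3. On old_AL 1 Tubb4a read 72.8, against 20.9 to 23.4 on the other 11, and Mapt read 84.7, against 27.1 to 32.0. Tuba1a read 96.9 there, against 118.8 to 142.1. The saturation value of the old_AL 1 scan equals 101.3 multiples, below all of these other readings. The direction of Tuba1a on old_AL 1 therefore cannot be read.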
